A study of Mus musculus with 4 samples.

Results

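The 36 genes described here encode subunits of the Polycomb complexes of the mouse. They were taken as a list of symbols, matched to Ensembl identifiers, and all 36 were found among the 37224 identifiers of the data and had enough reads to test. Messenger RNA was sequenced from Smg6-deficient mouse embryonic stem (ES) cells in 2 libraries and from wild-type ES cells, which the titles call normal, in 2 libraries. ES cells are pluripotent cells grown from the early embryo, and the Smg6 protein cuts RNA in nonsense-mediated mRNA decay (NMD), by which cells degrade transcripts that carry an early stop codon. The labels did not give the strain, passage, allele or culture conditions, nor whether the libraries of a group came from separate lines, clones or cultures. The p-values therefore set the genotypes against the spread of these libraries alone, which could be technical, and any difference between lines other than Smg6 cannot be told apart from its loss.

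Polycomb repressive complex 2 (PRC2) places methyl groups on lysine 27 of histone H3, and Polycomb repressive complex 1 (PRC1) places ubiquitin on histone H2A. PRC1 comes in a canonical form, in which Cbx proteins read the PRC2 mark and Phc proteins compact chromatin, and in variant forms, in which Rybp or Yaf2 take the place of Cbx. The Polycomb repressive deubiquitinase (PR-DUB) removes the ubiquitin again. In ES cells these complexes occupy the promoters of silent developmental regulators, among them the Hox genes.

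Deposited gene counts summed to between 137937779 and 155391181 reads in the Smg6-deficient libraries and between 130888768 and 137643993 in the wild-type libraries, and no listed gene had fewer than 193 reads in any library. Levels within a gene are given as CPM (reads scaled to a common depth, relative to TMM-scaled library sizes), and levels between genes as the deposited RPKM, which also divides by gene length. Changes are log2 fold changes of Smg6-deficient over wild type, and adjusted p-values are from the quasi-likelihood test of edgeR, adjusted by Benjamini-Hochberg over 20895 genes, with 0.05 as the threshold. Smg6 itself stood at 87.6 and 86.2 CPM in Smg6-deficient libraries and 95.7 and 105 CPM in wild-type libraries, a difference that did not pass (log2 fold change -0.21, SE 0.083, edgeR adjusted p = 0.089). A gene-level value does not show whether single exons are missing, so the labels could not be checked by it. The 12 ES cell markers, none of them at 0, summed to 4180 and 4112 CPM in Smg6-deficient libraries and 6241 and 5339 CPM in wild-type libraries, with 7 lower and 2 higher. The 12 endoderm markers were all higher, with summed levels of 2596 and 3861 CPM in Smg6-deficient libraries and 730 and 641 CPM in wild-type libraries. The 12 fibroblast markers, which feeder cells would carry, summed to 1586 and 1456 CPM in Smg6-deficient libraries and 1261 and 902 CPM in wild-type libraries, with 3 of 12 higher (9 without wild-type replicate 1, 5 without Smg6-deficient replicate 2). No endoderm or fibroblast marker was at 0 in every library. In such mixed RNA, fewer cells of a type and less RNA per cell cannot be told apart.

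The Polycomb genes moved in both directions: 18 of 36 passed the threshold, 6 higher and 12 lower, and 18 did not pass. Over all tested genes 39.7% passed, 20.5% higher and 19.2% lower. Among the 6586 tested genes whose log2 CPM averaged 5 or more, 47.4% passed, 27.3% higher and 20.0% lower. The 50.0% of Polycomb genes that passed lies near that share. By direction it was 16.7% higher and 33.3% lower, and this difference in direction was not tested. Some Polycomb genes, such as Cbx8 and Pcgf1, averaged below that level. That level bound was chosen after the values were seen. The median log2 fold change of the 36 genes was -0.03, against 0.01 for all tested genes. These medians are without a gene length correction. The Polycomb genes were longer, with a median of 6118.5 bases implied by counts and RPKM, against 3315 for all tested genes. No overlap between the genotypes was seen for 27 of the 36 genes (10 higher and 17 lower), against 73.2% of all tested genes. By complex the counts differed, without a test of the difference. Of 11 PRC2 genes, 5 were lower and 0 higher (median -0.15). Of 10 canonical PRC1 genes, 4 were lower and 2 higher (median 0.02). Of 10 variant PRC1 genes, 2 were lower and 1 higher (median -0.01). The 3 PR-DUB genes of the list were all higher (median 0.58). Of the 18 calls, 9 held under all 17 alternative settings, namely the falls of Rbbp7, Rnf2, Bmi1 and Cbx2 and the rises of Phc1, Kdm2b, Asxl1, Asxl2 and Bap1. The count of falls dropped without Smg6-deficient replicate 1 or 2, but not without wild-type replicate 1 or 2. Over all tested genes the count of lower genes, 4004 with all libraries, also dropped in the first case and rose in the second. Such fits take their spread from the group that keeps 2 libraries.

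**Figure D1:**
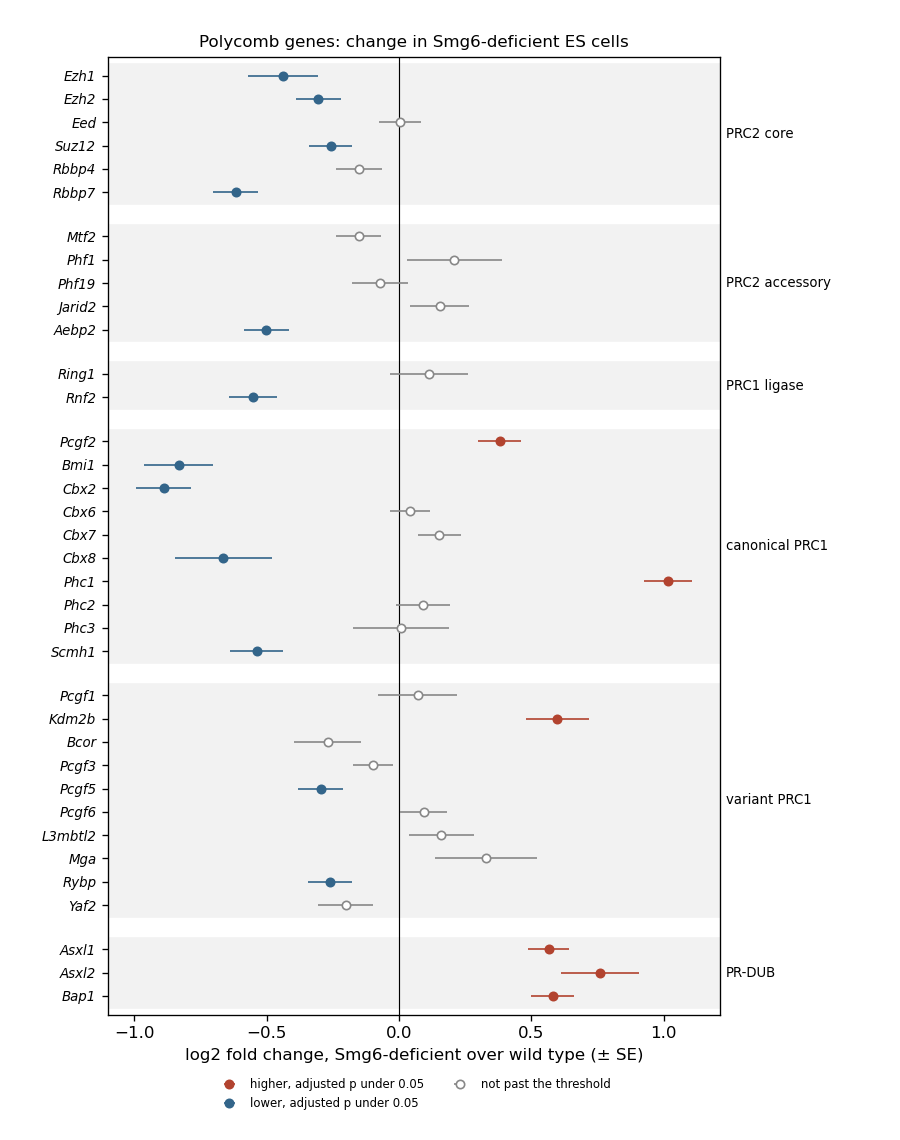
Log2 fold change (x axis, Smg6-deficient over wild type, bars ± SE) of the 36 Polycomb genes, grouped by complex; filled points passed the edgeR threshold. Phc1 lies farthest to the right at 1.02, Cbx2 farthest to the left at -0.89, and the 3 PR-DUB genes lie between 0.57 and 0.76.

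The genes differed widely in level. Per gene length, 7 of the 36 genes averaged over 50 RPKM across the 4 libraries (Rbbp7, Mtf2, Phc1, Eed, Suz12, Rnf2 and Jarid2) and 10 averaged under 5 RPKM, with Cbx8 lowest at 0.30 and 0.32 RPKM in Smg6-deficient libraries and 0.54 and 0.47 RPKM in wild-type libraries. The gene at the top was not the same in both genotypes. Phc1 led in the Smg6-deficient libraries at 136.84 and 120.31 RPKM, followed by Mtf2 at 98.55 and 100.59 RPKM. Eed (92.73 and 94.58 RPKM) and Rbbp7 (95.50 and 90.85 RPKM) came next there and did not differ beyond the spread of their libraries. In the wild-type libraries Rbbp7 led at 159.09 and 136.25 RPKM, while Phc1 stood at 69.94 and 61.17 RPKM, below Mtf2, Eed, Suz12 and Rnf2.

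**Figure D2:**
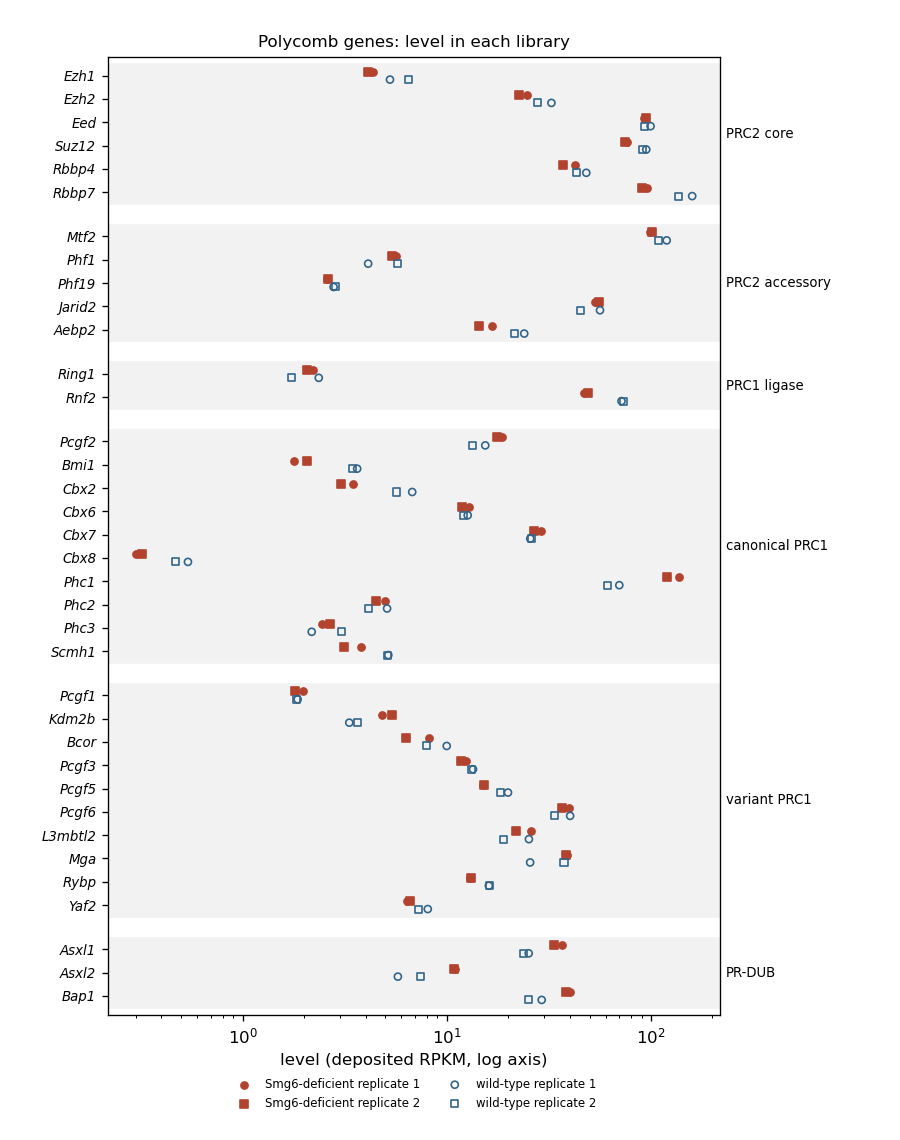
Deposited RPKM (x axis, log scale) of each Polycomb gene in the 2 Smg6-deficient libraries (filled) and the 2 wild-type libraries (open). Levels run from about 0.3 RPKM for Cbx8 to 159.09 RPKM for Rbbp7 in wild-type replicate 1, and the filled and open points of Phc1, Cbx2, Bmi1 and Rnf2 stand clearly apart.

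Of the 9 genes whose calls held under all settings, 4 lie, on GRCm38 with GENCODE M21, at chrX:162760402-162779092 (Rbbp7), chr1:151458004-151500955 (Rnf2), chr11:119022962-119031270 (Cbx2) and chr5:122870665-122989823 (Kdm2b), all protein-coding.

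In the PRC2 core, 4 of 6 genes fell in Smg6-deficient cells and none rose. Rbbp7, a WD-repeat protein that holds histones, was counted at 324 and 325 CPM in Smg6-deficient libraries and 521 and 475 CPM in wild-type libraries. Both Smg6-deficient libraries lay below both wild-type libraries, and the fall passed (log2 fold change -0.62, SE 0.086, edgeR adjusted p = 0.0023). Its near relative Rbbp4 stood at 435 and 401 CPM in Smg6-deficient libraries and 475 and 454 CPM in wild-type libraries and did not pass (-0.15, edgeR adjusted p = 0.20), but with a correction for gene length it passed as lower (-0.31, edgeR adjusted p = 0.030). Ezh2, the main methyltransferase of dividing cells, had 179 and 171 CPM in Smg6-deficient libraries and 227 and 206 CPM in wild-type libraries (log2 fold change -0.30, SE 0.086, edgeR adjusted p = 0.030). Ezh1, its paralogue, had 37.9 and 37.4 CPM in Smg6-deficient libraries and 44.1 and 57.9 CPM in wild-type libraries (-0.44, SE 0.13, edgeR adjusted p = 0.039). Suz12, the scaffold of the complex, had 439.6 and 454 CPM in Smg6-deficient libraries and 528 and 541 CPM in wild-type libraries (-0.26, edgeR adjusted p = 0.042). Eed, which binds the methyl mark, had 240.0 and 258 CPM in Smg6-deficient libraries and 249 and 248 CPM in wild-type libraries, so that the groups overlapped (log2 fold change 0.0040, edgeR adjusted p = 0.97), and its sign turned under each of the other scalings. The calls of Ezh1, Ezh2 and Suz12 did not hold in every setting. Without Smg6-deficient replicate 1 their edgeR adjusted p-values were 0.086, 0.16 and 0.35, and without Smg6-deficient replicate 2 they were 0.097, 0.27 and 0.25. The log2 fold changes were then -0.44 and -0.42 for Ezh1, -0.33 and -0.26 for Ezh2, and -0.23 and -0.27 for Suz12. With all 4 libraries, limma-trend on log2 RPKM gave adjusted p-values between 0.063 and 0.087 for the 3 genes, and without a filter on low counts edgeR gave 0.061 for Ezh2 and 0.065 for Suz12. Over all 11 PRC2 genes, 2 were then lower without Smg6-deficient replicate 1 and 1 without replicate 2.

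Among the accessory subunits of PRC2 only Aebp2 passed. Aebp2, a zinc finger protein that joins PRC2 together with Jarid2, was counted at 158 and 144 CPM in Smg6-deficient libraries and 219 and 209 CPM in wild-type libraries (log2 fold change -0.50, SE 0.085, edgeR adjusted p = 0.0046). Without Smg6-deficient replicate 2 its fall was -0.42 and no longer passed (edgeR adjusted p = 0.060). Jarid2 stood at 600.1 and 667 CPM in Smg6-deficient libraries and 615 and 524 CPM in wild-type libraries, which overlapped (log2 fold change 0.15). The Polycomb-like proteins Mtf2, Phf1 and Phf19, which bring the other form of PRC2 to DNA, had log2 fold changes of -0.15, 0.21 and -0.07, and none passed. With the gene length correction Mtf2 passed as lower (-0.26, edgeR adjusted p = 0.036). Mtf2 made up most of their summed RPKM, at 92.3% and 92.6% in Smg6-deficient libraries and 94.5% and 92.7% in wild-type libraries. Jarid2 passed without wild-type replicate 1 (0.29, edgeR adjusted p = 0.024) and Phf1 without wild-type replicate 2 (0.50, edgeR adjusted p = 0.0066). Without wild-type replicate 1 Phf1 stood at -0.031, and with the gene length correction Jarid2 stood at -0.028. Phf1 had 11.3 CPM in wild-type replicate 1 and 16.6 CPM in wild-type replicate 2.

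The ligase of all PRC1 forms is Ring1 or Rnf2, and Rnf2 fell. It was counted at 166 and 183 CPM in Smg6-deficient libraries and 244 and 266 CPM in wild-type libraries, without overlap (log2 fold change -0.55, SE 0.091, edgeR adjusted p = 0.0042). Ring1 had 8.39 and 8.23 CPM in Smg6-deficient libraries and 8.60 and 6.77 CPM in wild-type libraries, which overlapped, and it did not pass (0.11, edgeR adjusted p = 0.58). Rnf2 held 95.5% and 96.0% of the summed RPKM of the pair in Smg6-deficient libraries and 96.8% and 97.7% in wild-type libraries. The sum of both stood at 49.16 and 51.09 RPKM in Smg6-deficient libraries and 74.06 and 75.01 RPKM in wild-type libraries.

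Canonical PRC1 held both the largest rise and the largest fall of the 36 genes. Phc1, a sterile alpha motif protein that polymerises and compacts chromatin, was counted at 846 and 784 CPM in Smg6-deficient libraries and 417 and 388 CPM in wild-type libraries. That is a 2.02-fold rise with no overlap between groups (log2 fold change 1.02, SE 0.090, edgeR adjusted p = 0.00051). It was the only rise of at least 2-fold among the 36 genes. Its relatives Phc2 and Phc3 had log2 fold changes of 0.09 and 0.01, their libraries overlapped, and neither passed; the sign of Phc3 turned under each of the other scalings. Phc3 spread from 36.0 to 53.5 CPM between the wild-type libraries and passed as higher without wild-type replicate 2 (0.30, edgeR adjusted p = 0.046). Without wild-type replicate 1 it stood at -0.24 (edgeR adjusted p = 0.082). Corrected for gene length and blocked by replicate number, it passed as lower (-0.23, edgeR adjusted p = 0.046). Scmh1, another sterile alpha motif protein, had 34.1 and 29.8 CPM in Smg6-deficient libraries and 45.0 and 47.8 CPM in wild-type libraries (-0.54, SE 0.099, edgeR adjusted p = 0.0063), but without Smg6-deficient replicate 2 it did not pass (-0.43, edgeR adjusted p = 0.060).

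The Cbx proteins carry the chromodomain that reads the PRC2 mark, and those with the lowest RPKM, Cbx2 and Cbx8, fell. Cbx2 was counted at 17.2 and 15.9 CPM in Smg6-deficient libraries and 32.4 and 28.9 CPM in wild-type libraries, without overlap (log2 fold change -0.89, SE 0.10, edgeR adjusted p = 0.0013). Cbx8 had 1.28 and 1.43 CPM in Smg6-deficient libraries and 2.24 and 2.06 CPM in wild-type libraries (-0.66, SE 0.18, edgeR adjusted p = 0.028). The fall of Cbx8 did not pass when Smg6-deficient replicate 1 (edgeR adjusted p = 0.22) or replicate 2 (0.11) was left out. Cbx7, the main canonical Cbx gene of ES cells, had 220.1 and 212 CPM in Smg6-deficient libraries and 187 and 202 CPM in wild-type libraries and did not pass (0.15, edgeR adjusted p = 0.18). Cbx6 stood at 94.1 and 92.3 CPM in Smg6-deficient libraries and 89.7 and 91.3 CPM in wild-type libraries (0.04, edgeR adjusted p = 0.68), and its sign turned when counts were scaled by library size alone or by autosomal genes alone. Of the summed RPKM of Cbx2, Cbx6, Cbx7 and Cbx8, Cbx7 made up 63.7% and 63.5% in Smg6-deficient libraries and 56.2% and 58.7% in wild-type libraries, and Cbx2 made up 7.60% and 7.23% in Smg6-deficient libraries and 14.8% and 12.8% in wild-type libraries. The sum itself was nearly level, at 45.66 and 41.89 RPKM in Smg6-deficient libraries and 45.60 and 44.20 RPKM in wild-type libraries.

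Pcgf2 and Bmi1 are the ring finger subunits that set canonical PRC1 apart, and they moved in opposite directions. Bmi1 was counted at 8.27 and 10.1 CPM in Smg6-deficient libraries and 16.3 and 16.5 CPM in wild-type libraries (log2 fold change -0.83, SE 0.13, edgeR adjusted p = 0.0034). Pcgf2 had 77.0 and 76.6 CPM in Smg6-deficient libraries and 61.3 and 56.7 CPM in wild-type libraries (0.38, SE 0.081, edgeR adjusted p = 0.011). The rise of Pcgf2 did not pass without Smg6-deficient replicate 1 (edgeR adjusted p = 0.081) or replicate 2 (0.072), nor with limma-trend (adjusted p = 0.071 and 0.072 with either pseudocount). Bmi1 made up 8.68% and 10.5% of the summed RPKM of the pair in Smg6-deficient libraries and 19.1% and 20.5% in wild-type libraries, a difference of means of -10.2 percentage points. The shares did not overlap, yet an exact two-sided permutation test of 2 against 2 libraries cannot give a p below 0.33, the value found here.

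**Figure D3:**
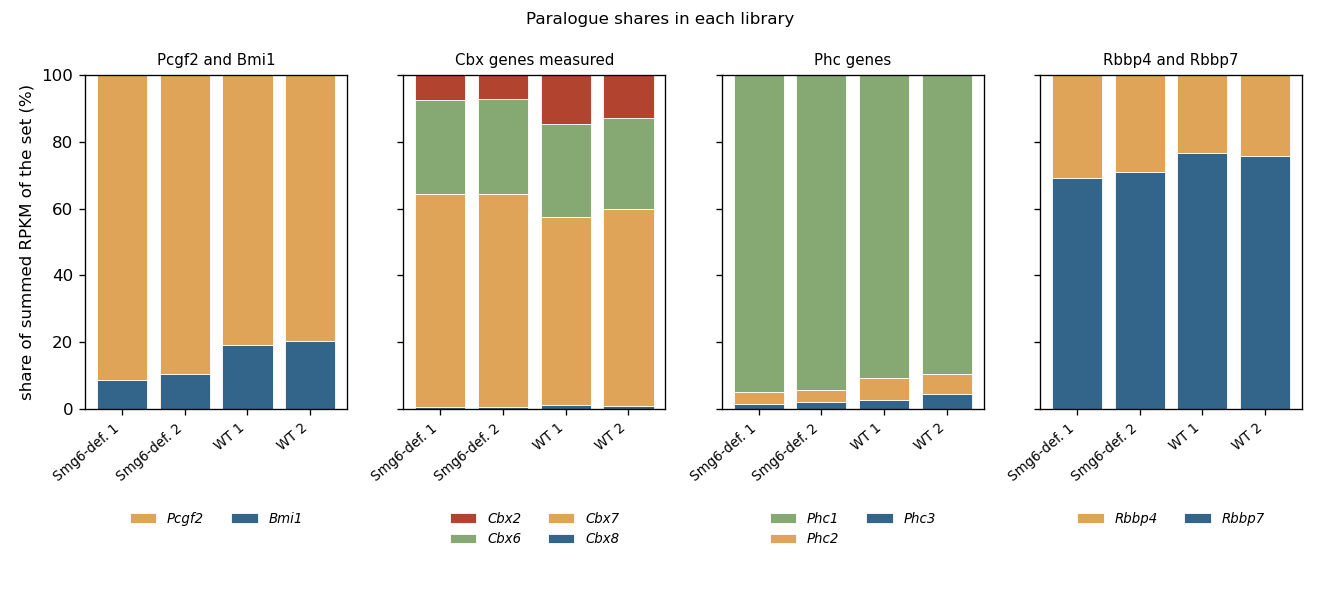
Stacked bars give the share of each gene in the summed RPKM of its set (y axis, percent) in each of the 4 libraries, the Smg6-deficient ones on the left, for Pcgf2 and Bmi1, the Cbx genes, the Phc genes, and Rbbp4 and Rbbp7. The share of Bmi1 is lower in both Smg6-deficient libraries (8.68% and 10.5%) than in both wild-type libraries (19.1% and 20.5%), as are those of Cbx2 and Rbbp7, and that of Phc1 is higher.

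In the variant PRC1 complexes 1 of 4 ring finger subunits, Pcgf5, passed. Pcgf6 was the most abundant of the 6 Pcgf genes per length, with 44.3% and 42.9% of their summed RPKM in Smg6-deficient libraries and 42.5% and 40.1% in wild-type libraries. Pcgf1, Pcgf3 and Pcgf6 had log2 fold changes of 0.07, -0.10 and 0.09, and none passed. With the gene length correction Pcgf3 passed as lower (-0.27, edgeR adjusted p = 0.019). Pcgf5 was counted at 29.1 and 30.9 CPM in Smg6-deficient libraries and 37.2 and 36.5 CPM in wild-type libraries (log2 fold change -0.30, SE 0.086, edgeR adjusted p = 0.033). Rybp, which binds nucleosomes that already carry ubiquitin, had 67.5 and 72.0 CPM in Smg6-deficient libraries and 80.6 and 86.5 CPM in wild-type libraries (-0.26, SE 0.083, edgeR adjusted p = 0.046), and its paralogue Yaf2, at -0.20, did not pass. Both falls were lost without either Smg6-deficient library: without Smg6-deficient replicate 1 the edgeR adjusted p was 0.32 for Pcgf5 and 0.39 for Rybp, and without Smg6-deficient replicate 2 it was 0.17 and 0.20. Without a filter on low counts it was 0.068 and 0.077.

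Kdm2b, the CpG-binding subunit that brings the Pcgf1 form of PRC1 to unmethylated CpG islands, rose. It had 66.7 and 78.9 CPM in Smg6-deficient libraries and 44.3 and 51.8 CPM in wild-type libraries, without overlap (log2 fold change 0.60, SE 0.12, edgeR adjusted p = 0.0083). Bcor, the corepressor of the same complex, had 68.5 and 55.7 CPM in Smg6-deficient libraries and 80.9 and 68.9 CPM in wild-type libraries and did not pass (-0.27, edgeR adjusted p = 0.14). It passed without wild-type replicate 2 (-0.40, edgeR adjusted p = 0.020) and in both fits with the replicate number as a block (-0.27 and, with a gene length correction as well, -0.41). Mga and L3mbtl2 belong to the Pcgf6 form. Mga, which binds DNA together with Max, had 696 and 725 CPM in Smg6-deficient libraries and 442 and 689 CPM in wild-type libraries, where wild-type replicate 1 alone was low (0.33, edgeR adjusted p = 0.22). Its value was 0.66 without wild-type replicate 2 (edgeR adjusted p = 0.00025) and 0.057 without wild-type replicate 1. L3mbtl2 had a log2 fold change of 0.16 (edgeR adjusted p = 0.33) and passed without wild-type replicate 1 (0.34, edgeR adjusted p = 0.0087), while without wild-type replicate 2 it stood at -0.012.

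All 3 PR-DUB genes of the list rose, and these calls held under every alternative tried. The list does not hold every gene tied to the PR-DUB. Among the partner genes described below, Hcfc1 and Foxk1 rose, Ogt fell and Foxk2 did not pass. Bap1, the deubiquitinase itself, was counted at 159.8 and 160.2 CPM in Smg6-deficient libraries and 112 and 102 CPM in wild-type libraries (log2 fold change 0.58, SE 0.082, edgeR adjusted p = 0.0024). Asxl1, which activates Bap1, had 318 and 307 CPM in Smg6-deficient libraries and 211 and 212 CPM in wild-type libraries (0.57, SE 0.078, edgeR adjusted p = 0.0022). Asxl2, its paralogue, had 186 and 195 CPM in Smg6-deficient libraries and 94.6 and 130.3 CPM in wild-type libraries (0.76, SE 0.15, edgeR adjusted p = 0.0079). None of these genes overlapped between groups, and their summed level was 664 and 662 CPM in Smg6-deficient libraries, against 417 and 444 CPM in wild-type libraries. Asxl1 took 77.1% and 75.5% of the summed RPKM of the Asxl pair in Smg6-deficient libraries and 81.4% and 76.1% in wild-type libraries, so the shares overlapped.

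The promoter windows of the genes that moved together in the PR-DUB, of Phc1 and of the pair that moved apart, Pcgf2 and Bmi1, are printed from RefSeq (GRCm38.p6, 250 bases before to 50 after the start, 5′ to 3′ on the strand of the gene). Capitals mark the motifs CACGTG (E-box), CCGGAAG (bound by ETS factors) and AAGATGGCG (bound by Yy1), searched on both strands, and in these windows no marked motif overlaps another. The windows lie at chr14:31251239-31251538 (plus strand), chr2:153345580-153345879 (plus), chr12:3426607-3426906 (plus), chr6:122340178-122340477 (minus), chr11:97699599-97699898 (minus) and chr2:18676768-18677067 (plus).
Bap1: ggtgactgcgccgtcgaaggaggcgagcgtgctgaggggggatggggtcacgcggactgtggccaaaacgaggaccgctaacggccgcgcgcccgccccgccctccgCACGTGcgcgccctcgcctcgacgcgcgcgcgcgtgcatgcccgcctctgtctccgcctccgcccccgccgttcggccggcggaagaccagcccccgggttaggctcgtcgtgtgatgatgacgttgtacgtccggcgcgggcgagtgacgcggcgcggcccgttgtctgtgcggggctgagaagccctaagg
Asxl1: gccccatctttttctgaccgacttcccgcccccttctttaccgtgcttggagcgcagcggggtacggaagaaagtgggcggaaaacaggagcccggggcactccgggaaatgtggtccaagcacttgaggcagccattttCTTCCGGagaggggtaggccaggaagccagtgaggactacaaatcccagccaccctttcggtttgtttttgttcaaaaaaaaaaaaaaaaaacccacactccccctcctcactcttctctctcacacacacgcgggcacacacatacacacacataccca
Asxl2: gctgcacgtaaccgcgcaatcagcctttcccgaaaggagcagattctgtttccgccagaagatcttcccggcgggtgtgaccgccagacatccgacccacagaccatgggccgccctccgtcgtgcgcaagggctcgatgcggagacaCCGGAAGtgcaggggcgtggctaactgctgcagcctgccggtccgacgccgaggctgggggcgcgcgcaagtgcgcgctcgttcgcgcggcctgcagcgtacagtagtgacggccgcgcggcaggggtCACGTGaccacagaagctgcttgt
Phc1: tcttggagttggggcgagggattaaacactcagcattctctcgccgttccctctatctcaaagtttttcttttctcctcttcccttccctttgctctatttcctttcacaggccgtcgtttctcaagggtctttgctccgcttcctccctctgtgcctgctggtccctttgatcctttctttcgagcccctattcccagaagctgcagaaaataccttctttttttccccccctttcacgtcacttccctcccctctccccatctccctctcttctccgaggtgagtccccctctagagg
Pcgf2: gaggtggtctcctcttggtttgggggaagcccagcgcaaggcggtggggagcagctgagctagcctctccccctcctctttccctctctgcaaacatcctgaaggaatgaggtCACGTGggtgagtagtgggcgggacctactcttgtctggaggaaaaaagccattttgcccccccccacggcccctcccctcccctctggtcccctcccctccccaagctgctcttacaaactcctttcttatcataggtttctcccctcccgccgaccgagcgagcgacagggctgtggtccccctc
Bmi1: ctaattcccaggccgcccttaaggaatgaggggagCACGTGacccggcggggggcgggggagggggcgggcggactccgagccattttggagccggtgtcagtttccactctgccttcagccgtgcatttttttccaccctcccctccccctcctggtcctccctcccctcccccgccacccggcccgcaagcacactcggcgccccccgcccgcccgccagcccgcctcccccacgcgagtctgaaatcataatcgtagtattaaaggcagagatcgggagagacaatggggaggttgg
A window was found for 32 of the 36 genes, 45 windows in all. The E-box, the site of Myc, Max and Mga dimers, stood in 9 of the 45 windows (20.0%), against 7.15% of 32851 windows of all genes and 11.7% of the 6563 windows with at least 24 CpG. It stood in windows of 3 of 6 genes that rose, 2 of 10 that fell and 4 of 16 that did not pass. The ETS motif stood in 3 windows of the set (6.67%, against 8.86% of all windows and 19.1% of the CpG-rich ones), those of Asxl1, Asxl2 and Phc2. The Yy1 motif stood in 2 (4.44%, against 1.40% of all windows and 3.14% of the CpG-rich ones). The windows of the set held a median of 24 CpG and 64.3% GC, against 7 CpG and 52.7% GC over all windows, and that of Phc1 held 9 CpG and none of the 3 motifs. A match is a run of letters and shows no binding.

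Both X-linked genes of the set, Rbbp7 and Bcor, lay on a chromosome whose genes were lower as a whole. The median log2 fold change of 1040 tested X-linked genes was -0.76, against 0.03 for 19430 autosomal genes. Rbbp7, at -0.62, stood above that median by 0.15, with 57.2% of X-linked genes lower, and Bcor, at -0.27, stood above it by 0.49, with 71.3% lower. The fall of Rbbp7 cannot be told apart from the lower level of the X chromosome. The paralogue balance moved with it: autosomal Rbbp4 made up 30.9% and 29.1% of the summed RPKM of the pair in Smg6-deficient libraries and 23.3% and 24.1% in wild-type libraries. Among the 34 autosomal Polycomb genes, 6 were higher (17.6%) and 11 lower (32.4%), with a median of 0.01. Of all 19430 autosomal genes, 21.6% were higher and 17.3% lower. This difference in direction was not tested.

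**Figure D4:**
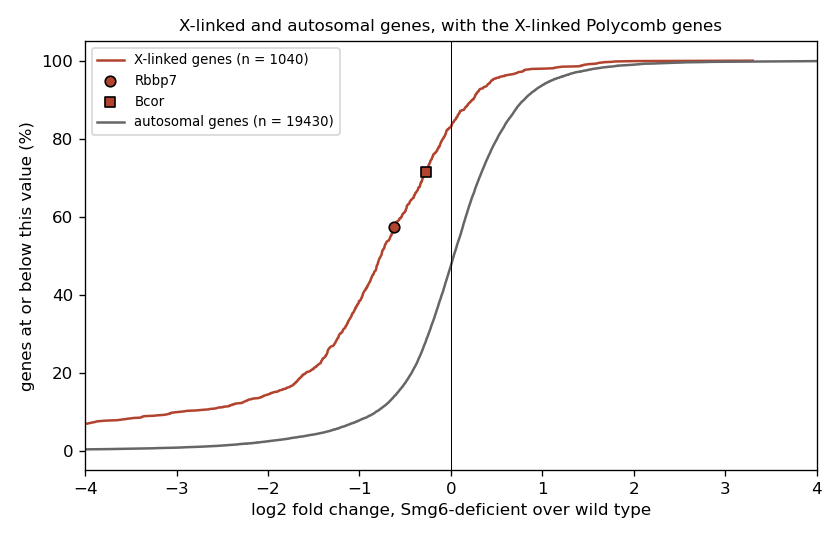
Cumulative share of genes (y axis, percent) by log2 fold change (x axis, Smg6-deficient over wild type) for X-linked and autosomal genes, with Rbbp7 and Bcor marked on the X-linked curve. The X-linked curve lies to the left (median -0.76, against 0.03), and Rbbp7 and Bcor sit to the right of its middle; the x axis ends at 4 on either side.

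An NMD transcript is annotated in GENCODE M21 for 16 of the 36 genes. Of these 16, 4 were higher (Phc1, Kdm2b, Asxl2 and Bap1) and 2 lower (Ezh2 and Suz12), with a median log2 fold change of 0.09. Of the other 20 genes, 2 were higher and 10 lower, with a median of -0.26. Over all tested coding genes, 33.3% of the 4152 with such a transcript were higher and 14.6% lower, against 20.7% and 22.3% of the 12303 without. Gene counts do not separate transcripts, so whether the NMD transcripts themselves rose was not measured.

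Genes that work with or against Polycomb were listed by role and described next to the subunits. Of 37 such genes, 10 were higher and 7 lower (11 lower without wild-type replicate 2), with a median of 0.01. Of the 37, 45.9% passed, against 39.7% of all tested genes and 47.4% of those whose log2 CPM averaged 5 or more. Of the 5 X-linked ones all passed: Scml2, Kdm6a, Ogt and Bcorl1 fell and Hcfc1 rose. For the X chromosome as a whole 60.3% passed, with 56.7% falling and 3.56% rising. Scml2, a Polycomb protein known from male germ cells of the mouse, was counted at 2.58 and 3.10 CPM in Smg6-deficient libraries and 161 and 146 CPM in wild-type libraries (log2 fold change -5.76, SE 0.13, edgeR adjusted p = 3.4e-05). That is far below the X-linked median, and only 4.52% of X-linked genes fell further. Kdm6a, an X-linked demethylase that removes the PRC2 mark, had 123 and 124 CPM in Smg6-deficient libraries and 239.6 and 284 CPM in wild-type libraries (-1.08, SE 0.10, edgeR adjusted p = 0.00059). Its autosomal relative Kdm6b moved the other way, with 82.0 and 90.0 CPM in Smg6-deficient libraries and 50.5 and 58.2 CPM in wild-type libraries (0.66, SE 0.10, edgeR adjusted p = 0.0031). Ogt, the enzyme that adds N-acetylglucosamine to nuclear proteins and binds the PR-DUB partner Hcfc1, fell by 0.84 on the log2 scale. Hcfc1, itself X-linked, rose by 0.62. Foxk1, which binds the PR-DUB, rose by 0.94 (SE 0.095, edgeR adjusted p = 0.00075). Its paralogue Foxk2 did not pass (0.20, edgeR adjusted p = 0.085). Kdm6b, Hcfc1, Bcorl1 and Foxk2 were picked after their values were seen.

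Hox genes, the textbook targets of Polycomb, were low in both genotypes. The 38 measured Hox genes together summed to 33.2 and 34.2 CPM in Smg6-deficient libraries and 36.2 and 33.5 CPM in wild-type libraries, so the groups overlapped. Of the 38, 5 were higher and 5 lower, 26.3% in all against 39.7% of all tested genes. These shares are not matched by level: the median log2 CPM was -1.21 for the Hox genes and 3.21 for all tested genes. Hoxa10 rose to 1.51 and 1.80 CPM in Smg6-deficient libraries, against 0.814 and 0.568 CPM in wild-type libraries (log2 fold change 1.26, SE 0.25, edgeR adjusted p = 0.0087). Hoxc13 fell to 2.18 and 2.23 CPM in Smg6-deficient libraries, against 5.11 and 4.80 CPM in wild-type libraries (-1.17, SE 0.15, edgeR adjusted p = 0.0016). Its neighbours Hoxc12 (-2.69, edgeR adjusted p = 0.0024) and Hoxc11 (-2.32, edgeR adjusted p = 0.0046) fell too, with only 6 to 8 reads each in the Smg6-deficient libraries. Hoxd1 and Hoxb9 were the remaining falls. Without Smg6-deficient replicate 1, 3 Hox genes were higher and 3 lower, and without Smg6-deficient replicate 2 the numbers were 2 and 3.

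Markers of endoderm moved with the genotype, and their part in the Polycomb differences was not tested. They also differed between the Smg6-deficient libraries, with a median log2 ratio of replicate 2 over replicate 1 of 0.83 for the 12 markers. The same ratio of the 36 Polycomb genes went both ways, between -0.30 for Bcor and 0.30 for Bmi1 (median 0.0042). A median over genes that go both ways can lie near 0 whatever moves them, so no conclusion is drawn from it. Whether single Polycomb genes followed the markers was not tested. Reads of 11 of the 36 genes could also be shared with another counted gene whose exons overlap theirs, because the kit does not mark strand. Among them were Rbbp7 with Txlng, Rnf2 with Trmt1l, Kdm2b with Rnf34, Cbx7 with Apobec3, Asxl1 with 2500004C02Rik and Asxl2 with 1110002L01Rik. The exons of Cbx6 overlap those of Npcd on the same strand.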

How the data were processed

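Per the labels' protocols, total RNA was made into TruSeq RNA v2 libraries, a kit that does not mark strand, and sequenced as single reads. Per the submitters' processing notes, TopHat2 2.0.9 was the aligner and mm10 the genome build. As to the gene counter, annotation release, strand setting and multi-mapped reads, nothing was given in the sources used here. The authors deposited raw read counts per Ensembl gene and RPKM values for each library, for 37224 identifiers, of which 35449 could be paired with a symbol. For genes such as Eed and Rbbp7, RPKM was lower relative to count and total in both replicate 2 libraries. Summed RPKM therefore also carries this scaling, while shares within a library do not.

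After removal of low genes by filterByExpr (minimum count 10) and TMM scaling, the counts went into edgeR 4.0.16 (quasi-likelihood test, genotype only, all 4 libraries, R 4.3.3), with Benjamini-Hochberg adjustment over 20895 genes and a threshold of 0.05. Each SE was obtained from the size of the log2 fold change over the root of its F statistic. The procedure was also run on simulated counts that had the same dispersion for every gene and few changed genes. These data differ in both respects, so that run does not vouch for the calls. The spread of replicates exceeded counting noise (a chi-square of 39.4 per degree of freedom between Smg6-deficient and 69.7 between wild-type libraries), and no 2 libraries were identical. Alternatives were other scalings and filters, a gene length correction, the replicate number as a block, leaving out each library, DESeq2 1.42.0, limma-voom, and limma-trend (limma 3.58.1) on log2 of the deposited RPKM plus 1 or 0.1. With 1 library of a group left out, the lone library is assumed to vary like the other group.

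The Polycomb genes and the other lists were chosen with earlier results of these data known. Full values are given for Polycomb genes past the threshold with an absolute log2 fold change of at least 0.5, and for up to 3 called genes per complex. X-linked Polycomb genes are given with CPM, log2 fold change and adjusted p. Of the partner and Hox lists, up to 4 called genes with the smallest adjusted p are named, some without CPM or SE. Cell type markers are given only as sums and counts. Promoter windows are those of RefSeq.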

Additional observations from a re-analysis of the deposited data

How the results depend on the processing

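The 9 calls named in the report as stable held in all 17 settings. Of the calls, 9 were lost in at least 1 setting, and the cause was not tested. Over all tested genes, calls were fewer without Smg6-deficient replicate 1 or 2 and more numerous without wild-type replicate 1 or 2. Counts of all genes called higher were 2700 and 2643 with limma-trend on log2 of RPKM plus 1 and plus 0.1, against 4285. Leaving out 1 library gave a lowest count of 2805 and a highest of 5578 higher genes, and 2300 to 4899 lower genes. The ranges over the libraries left out were as follows. Polycomb genes called lower numbered 4 to 13. PRC2 genes called higher numbered 0 to 1. PRC2 genes called lower numbered 1 to 5. Canonical PRC1 genes called higher numbered 1 to 3. Canonical PRC1 genes called lower numbered 2 to 4. Variant PRC1 genes called higher numbered 1 to 2. Variant PRC1 genes called lower numbered 0 to 3. Polycomb partners and opposing enzymes called lower numbered 5 to 11. Hox cluster genes called higher numbered 2 to 7. Hox cluster genes called lower numbered 3 to 6. Fibroblast markers called higher numbered 2 to 9. Fibroblast markers called lower numbered 0 to 1. The Bcor log2 fold change lay between -0.42 and -0.12.

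Without a filter, PRC2 had 3 lower genes and variant PRC1 had 0. With limma-trend, PRC2 had 2 lower genes, canonical PRC1 had 1 higher gene, ES cell markers had 1 higher and fibroblast markers had 1 higher under both pseudocounts. With the gene length correction, Rbbp4, Mtf2 and Pcgf3 passed as lower, 12 partners were lower and 1 fibroblast marker was higher. With at least 50 counts in 2 libraries, 2 Hox genes were lower. DESeq2 called 5 fibroblast markers higher.

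The replicate numbers are shared by the groups but are not stated to pair libraries, and the deviations of same-numbered libraries correlated at 0.196 over only 2 pairs, so the block is an alternative only. With the replicate block, Bcor passed (-0.27, edgeR adjusted p = 0.023), as did Mga (0.36, edgeR adjusted p = 0.033), variant PRC1 had 2 higher genes and 6 fibroblast markers were higher. With the length correction and the block together, Bcor stood at -0.41 (edgeR adjusted p = 0.0014), variant PRC1 had 4 lower genes, 12 partners were lower and 5 fibroblast markers were higher.

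Some values near 0 changed sign, and of these only Phc3 with length correction and block passed (edgeR adjusted p = 0.046). Eed stood at -0.0063 with DESeq2 size factors, -0.053 with library size alone, -0.032 with upper-quartile factors, -0.041 with autosomal TMM, -0.039 with the stricter filter, -0.032 with gene length correction, -0.033 with gene length correction with replicate block, -0.0063 with DESeq2 Wald test, -0.041 with limma-trend on log2(RPKM + 1), -0.042 with limma-trend on log2(RPKM + 0.1), -0.039 without Smg6-deficient replicate 2 and -0.017 without wild-type replicate 2. Phf1 stood at -0.031 without wild-type replicate 1. Jarid2 stood at -0.028 with gene length correction and -0.020 with gene length correction with replicate block. Ring1 stood at -0.070 without wild-type replicate 2. Cbx6 stood at -0.014 with library size alone, -0.0026 with autosomal TMM, -0.00027 with the stricter filter, -0.079 with gene length correction, -0.079 with gene length correction with replicate block, -0.0016 with limma-trend on log2(RPKM + 1) and -0.0017 with limma-trend on log2(RPKM + 0.1). Phc2 stood at -0.045 with gene length correction, -0.039 with gene length correction with replicate block and -0.035 without wild-type replicate 2. Phc3 stood at -0.0015 with DESeq2 size factors, -0.051 with library size alone, -0.031 with upper-quartile factors, -0.038 with autosomal TMM, -0.037 with the stricter filter, -0.24 with gene length correction, -0.23 with gene length correction with replicate block, -0.0015 with DESeq2 Wald test, -0.013 with limma-trend on log2(RPKM + 1), -0.013 with limma-trend on log2(RPKM + 0.1), -0.090 without Smg6-deficient replicate 2 and -0.24 without wild-type replicate 1. Pcgf6 stood at -0.0079 without wild-type replicate 2. L3mbtl2 stood at -0.012 without wild-type replicate 2. The highest values with 1 library left out were 0.066 for Eed, 0.50 for Phf1, 0.31 for Ring1, 0.22 for Phc2, 0.30 for Phc3, 0.19 for Pcgf6 and 0.34 for L3mbtl2.

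Depth limits little here, since the lowest Polycomb count was 193 reads. The limits are 2 libraries a group, whole-gene counts that do not separate transcripts, and reads shared by overlapping genes.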
